A study of Bos taurus with 12 samples.

Results

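CpG sites whose cytosines were deposited on both strands were compared, strand against strand, in the blood DNA of 12 cows. A pair was taken wherever a plus-strand row of the position-sorted table was followed by a minus-strand row at the next base of the same chromosome or scaffold. The rule found 47992 pairs, which hold 95984 of the 216990 deposited rows (44.2%). The other 121006 rows, 60419 on the plus and 60587 on the minus strand, had no deposited partner and are called single-strand sites below. With a pair counted once, pairs made up 28.4% of 168998 CpG sites. That the letters at these positions are C and G could not be read, since no genome sequence of the build ARS-UCD1.2 was used here, and no sequences are printed for that reason.

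The blood came from 12 cows of 1 herd, aged 3 to 8 years and kept alike, with 1 mL sent for DNA extraction per cow. The 6 cows labelled Subfertile were removed from the herd in the year after sampling for reproductive complications that nobody had recognised at sampling. The 6 cows labelled Fertile had stayed and were free of such problems. No breed, treatment or genetic modification was named for either group. The authors deposited only cytosines that had passed their own test between these groups, so group differences at the pairs are a description and not a finding. The table's column prefixes F and R belong to the cows labelled Subfertile and Fertile, what the letters stand for is not stated, and if they were meant the other way each direction below would turn.

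A CpG reads the same on both strands, so each strand holds a cytosine, and the 2 cytosines lie at neighbouring positions. After replication the new strand is unmethylated, and the site is hemimethylated until UHRF1, which binds such sites, brings in DNMT1, the maintenance methyltransferase, to copy the mark. Whole blood is a mixture of nucleated cell types, and a percent value is a share of DNA molecules, so a difference between strands in such a mixture does not show that single molecules were hemimethylated. The enzymatic conversion used here reads 5-methylcytosine and 5-hydroxymethylcytosine alike. Fewer methylated cells and less methylation per cell cannot be told apart in these values.

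The first comparison asked how closely the strands of a pair agreed within a cow. Both strands had a value in all 12 cows at 34103 pairs (71.1%), in 11 cows at 11417 pairs, and in at least 8 cows at all of them, which gave 559256 values with both strands. The strands were close in every cow, with a Pearson correlation across pairs from 0.920 in subfertile cow 3 to 0.949 in subfertile cow 6, described over pairs that are not independent replicates. The mean absolute strand difference per cow was 8.80 ± 0.509 percentage points (SD, n = 12). The plus strand was neither the higher nor the lower one on average, as the signed mean per cow lay between -0.0587 and 0.149 points. The strands had equal values, to within 1e-06 points, at 32.7% to 38.7% of a cow's pairs and lay within 10 points at 64.1% to 71.1%. The number of reads behind each percent is unknown, so how much of these differences counting error alone would give was not tested.

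**Figure D1:**
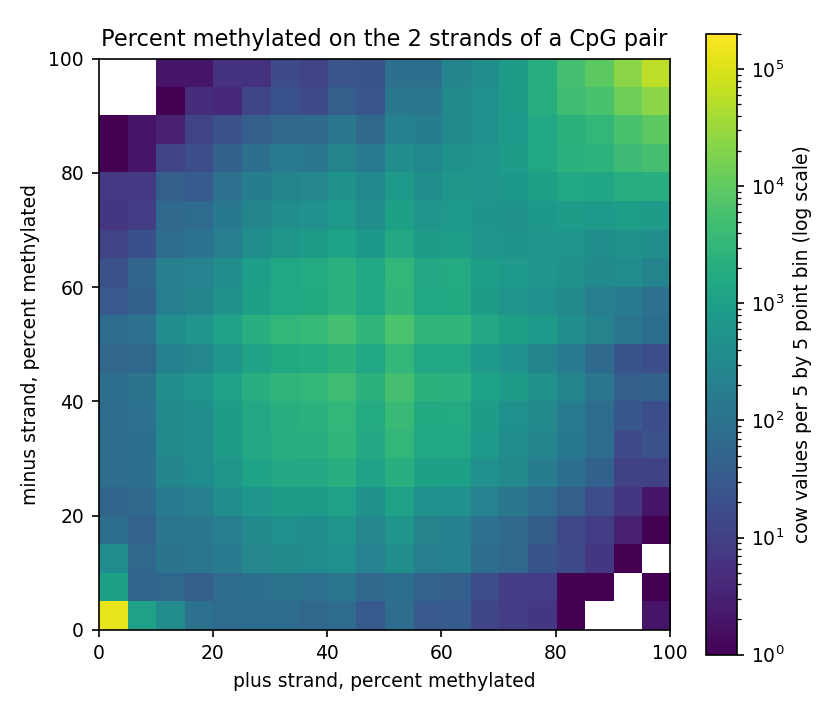
Percent methylated on the plus strand (x axis) and the minus strand (y axis) for 559256 cow values at 47992 pairs, counted in bins of 5 by 5 points on a log colour scale. Values gather in the lower left and upper right corners and around the middle of the diagonal, while the corners with 1 low and 1 high strand are nearly empty.

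Most values fell in the same class of methylation on both strands. Both strands were under 20% in 133479 values (23.9%), both from 20 to 80% in 198529 (35.5%) and both over 80% in 175586 (31.4%). Where the plus strand was under 20%, the minus strand was too in 94.6% of values, and where it was over 80% the minus strand was too in 90.5%. A plus strand under 20% faced a minus strand over 80% in 49 values, and the opposite case also held in 49. At 20394 pairs (42.5%) no cow had its strands in different classes, at 14163 (29.5%) a single cow did, and at 2775 (5.78%) at least 4 cows did.

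The strand difference depended on the level of the pair. In values with a strand mean from 0 to 20% it averaged 0.468 points, and 95.7% of those values were equal. It averaged 15.5, 15.8 and 15.8 points in the bands from 20 to 40, 40 to 60 and 60 to 80%, and 6.64 points from 80 to 100%. Both strands stood at 0 in 129543 values (23.2%) and at 100% in 55686 (9.96%). Agreement was thus closer at unmethylated than at methylated pairs, and least close at intermediate ones. A percent value has the most room to vary at intermediate levels, and the band sets how large a difference can be.

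**Figure D2:**
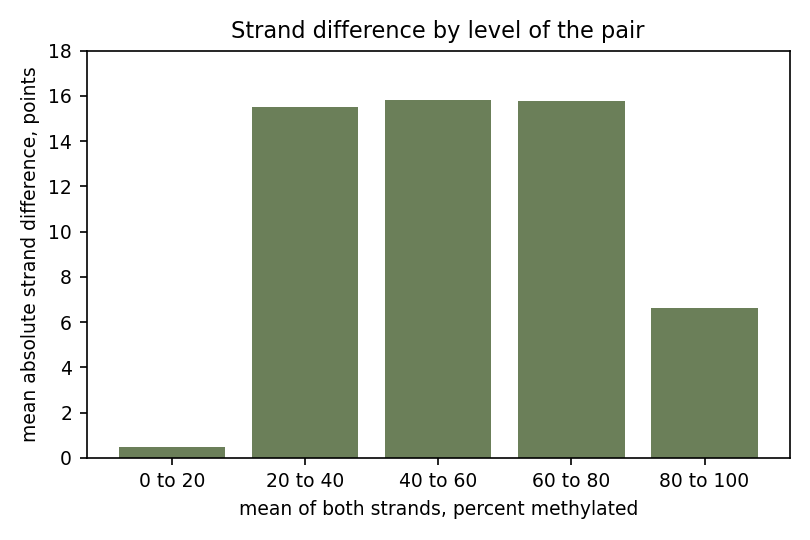
Mean absolute strand difference in percentage points (bars, y axis from 0) for cow values grouped by the mean of both strands (x axis, 5 bands of 20 points). The 3 intermediate bands stand at 15.5 to 15.8 points, the lowest band at 0.468 and the highest at 6.64.

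The second comparison asked whether strand agreement differed between the groups. The mean absolute strand difference was 8.97, 8.55, 9.56, 8.47, 9.16 and 7.71 points in subfertile cows 1 to 6. It was 8.36, 8.86, 9.04, 9.04, 9.40 and 8.54 points in fertile cows 1 to 6. The groups overlapped, and subfertile cows 6 and 3 were the lowest and the highest of all. The means were 8.73 ± 0.646 in subfertile and 8.87 ± 0.375 in fertile cows (SD, n = 6 each), a difference of -0.140 points that was smaller than the spread between cows (exact permutation test over all 924 splits, two-sided, p = 0.671). With pairs left out that had a cow under 10% and a cow over 80%, here called genotype-like from their values alone since no genotype was read, 11339 pairs remained. In these the subfertile cows averaged 8.88 ± 0.382 points (8.52 to 9.45) and the fertile cows 9.38 ± 0.225 (9.12 to 9.66), a difference of -0.500 (same exact test, p = 0.0281, not adjusted for the alternatives tried). Intermediate values moved with it, with 39.8 ± 1.36% of values from 20 to 80% in subfertile and 45.9 ± 2.12% in fertile cows at those pairs, and their part in the difference was not tested.

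Cows with more missing values had wider strand differences. Missing values made up 0.527% of paired rows in fertile cow 1, 4.46% in subfertile cow 3 and 0.886 to 1.87% in the other cows. Within values of intermediate level, where the cows' different shares of such values do not enter, the mean absolute strand difference ran from 14.8 points in fertile cow 1 to 17.1 in subfertile cow 3. Across the 12 cows it correlated with the missing share at Pearson's r = 0.937 (permutation p = 1e-05, the smallest that 100000 resamples can give, adjusted 3e-05) and Spearman's correlation of 0.923 (permutation p = 5e-05, adjusted 0.00015). Without subfertile cow 3 and fertile cow 1, the farthest from the median missing share, r was 0.872. It was 0.973 within subfertile and 0.899 within fertile cows.

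Over all levels the relations were looser. The mean absolute strand difference correlated with the missing share at r = 0.679 (permutation p = 0.0248, adjusted 0.0248) and a Spearman correlation of 0.832 (permutation p = 0.00134, adjusted 0.00201), and r was 0.737 without the same cows. Within groups that r was 0.712 in subfertile and 0.870 in fertile cows. With a cow's share of intermediate values it correlated at r = 0.806 (permutation p = 0.00251, adjusted 0.00376) and a Spearman correlation of 0.748 (permutation p = 0.00728, adjusted 0.00728). Within groups r was 0.850 in subfertile and 0.742 in fertile cows, and it was 0.579 without subfertile cows 5 and 6. These were the 3 relations computed, with Benjamini-Hochberg adjustment over them.

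**Figure D3:**
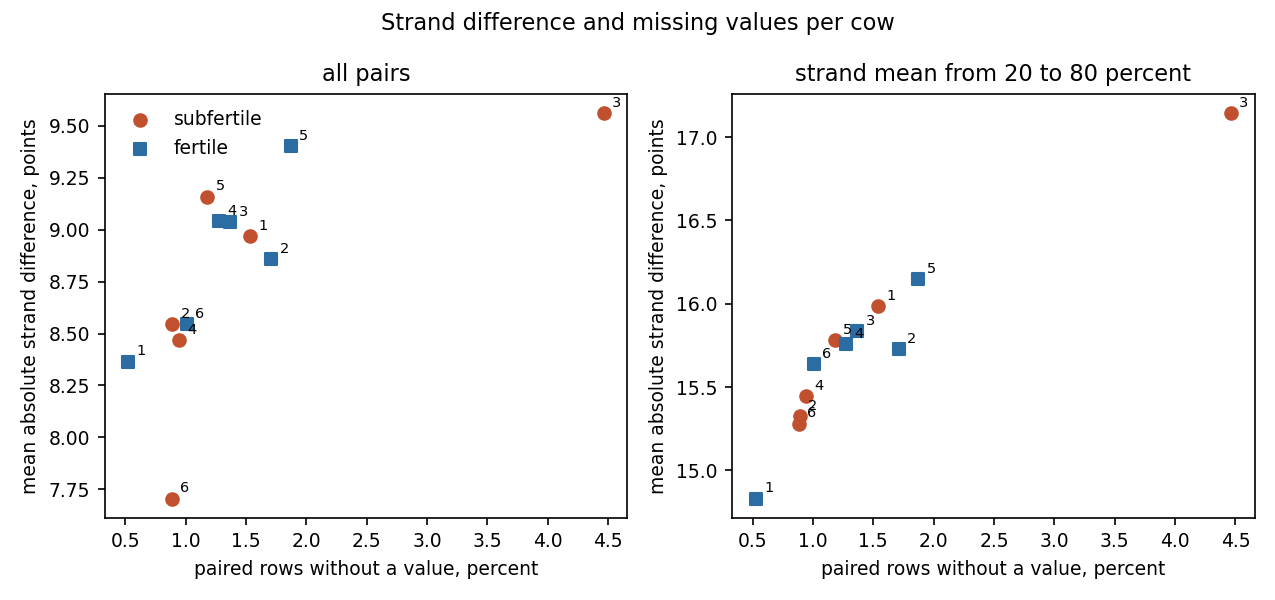
Mean absolute strand difference per cow in percentage points (y axis) against the percent of paired rows without a value (x axis), over all pairs on the left and in values with a strand mean from 20 to 80% on the right. Circles are subfertile and squares fertile cows with their numbers; subfertile cow 3 has the highest missing share, 4.46%, and the widest difference in both panels.

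Values with strands at least 50 points apart, called hemimethylated here, were rare and were nearly always seen in a single cow. They made up 0.571 ± 0.130% of a cow's values (SD, n = 12), from 0.399% in subfertile cow 6 to 0.885% in subfertile cow 3. The share was 0.585 ± 0.166% in subfertile and 0.558 ± 0.0937% in fertile cows (n = 6 each), which did not differ beyond the spread between cows (exact permutation test, two-sided, p = 0.805). The plus strand was the higher one in 1597 of these 3183 values and the minus strand in 1586. Their strand mean had a median of 48.2% and an interquartile range of 40.5 to 56.9%.

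At 3061 pairs (6.38%) at least 1 cow was hemimethylated in this sense. It was 1 cow at 2948 of them, 2 cows at 105, 3 cows at 7 and 4 cows at 1, and at no pair more than 4. At the 2948 pairs with 1 such cow, the other cows' strands differed by 8.55 points on average with a median of 5.56, close to the mean over all pairs, and were equal in 35.8% of values. Subfertile cow 3 was the cow at 369 of these pairs, subfertile cow 6 at 173 and fertile cow 1 at 179.

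The 8 pairs with 3 or 4 such cows were looked up after their values were seen. The pair with 4 lies at chr22:44090490-44090491 in an intron of ARHGEF3, which encodes a guanine nucleotide exchange factor. Its plus strand read 90, 50, 35.7, 50, 72.7 and 0% in subfertile cows 1 to 6 and its minus strand 100, 55.6, 85.7, 0, 12.5 and 0%. In fertile cows the plus strand read 100, 85.7, 88.9, 100, 100 and 100% and the minus strand 100, 27.3, 100, 100, 100 and 100%. The higher strand was minus in subfertile cow 3 and plus in subfertile cows 4 and 5 and fertile cow 2, so the cows did not share a direction.

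At chr7:110346041-110346042, in an intron of CAMK4, a calcium-dependent kinase of T cells and neurons, the minus strand was the higher one in most cows. The plus strand read 0, 0, 100, 0, 33.3 and 0% in subfertile cows and the minus strand 40, 57.1, no value, 60, 37.5 and 64.3%. In fertile cows the plus strand read no value, 100, 100, 45.5, 44.4 and 75% and the minus strand 100, 100, 100, 64.3, 81.8 and 100%. No cow with both values had a higher plus strand, and the mean difference was -30.7 points over 10 cows (limma, adjusted p = 0.881). The widest mean difference of all pairs, -33.1 points over 11 cows, lay in intergenic sequence at chr12:826282-826283 (limma, adjusted p = 0.881). There the minus strand was at 90 to 100% in all 6 subfertile cows while the plus strand ran from 31.2 to 100%.

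The other 5 pairs with 3 such cows included an intron of FAM107A at chr22:42749908-42749909 and an intron of KCNK1, a potassium channel, at chr28:6496569-6496570. They also included the promoter region of SCUBE2, a secreted protein of the Hedgehog pathway, at chr15:43497594-43497595. At SCUBE2 the plus strand was at 100, 100 and 80% in subfertile cow 2 and fertile cows 1 and 2, against 46.7, 40 and 30% on the minus strand. Both strands were at 0 in 4 subfertile cows and fertile cow 5 there, and both at 100% in fertile cow 6. Strands at least 80 points apart were found at 13 pairs, among them, named after their values were seen, an intron of FBXL17 and the intergenic neighbourhood of CNR1, the cannabinoid receptor, where fertile cow 3 read 100% on the plus and 0% on the minus strand. At these FBXL17 and CNR1 pairs no other cow was 50 points apart.

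No pair had a strand difference that held over the cows after adjustment. With limma on the plus value minus the minus value per cow, 0 of 47992 pairs (0%) passed an adjusted p of 0.05, and 2595 (5.41%) had an unadjusted p under 0.05. For a strand difference that differs between the groups, 0 of 47992 (0%) passed and 1216 (2.53%) had an unadjusted p under 0.05, with limma too. Cows without a value on both strands were dropped from the fit of that pair. A CpG entered as a pair only if both strands had passed the authors' thresholds for a group difference, which keeps out pairs whose strands differ much in that respect, so the second count describes a selected set. The mean strand difference of a pair had a median size of 2.68 points, reached 10 points at 1111 pairs (2.31%) and 25 points at 2, the pair on chromosome 12 and the pair in CAMK4.

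A single pair had the same direction in all 12 cows with both strands valued, and it is intergenic, without a gene symbol, at chr4:6945715-6945716. The plus strand read 62.5, 50, 41.7, 42.9, 58.8 and 60% in subfertile cows and the minus strand 33.3, 40, 9.09, 38.9, 52.6 and 22.2%. In fertile cows the plus strand read 84, 85, 100, 90.9, 94.1 and 50% and the minus strand 70, 57.1, 84.6, 85.7, 81.8 and 22.2%. The plus strand was higher by 3.97 to 37.8 points, by 18.5 on average, and the pair did not pass (limma, adjusted p = 0.844). At least 10 cows had 1 direction at 127 pairs and at least 11 cows at 17.

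The smallest p of the strand difference, named after its value was seen, was at chr8:22674767-22674768 in the promoter of LOC100299481. The plus strand read 92.9, 88.9, 100, 100, 88.9 and 83.3% in subfertile and 40, 75, 41.7, 33.3, 38.5 and 57.1% in fertile cows. The minus strand read 80, 61.1, 83.3, 71.4, 75 and 84.6% in subfertile and 16.7, 41.7, 36.4, 16.7, 15.8 and 35.7% in fertile cows. The plus strand was the higher one in every cow but subfertile cow 6, by 18.4 points on average over the 12 cows (limma, adjusted p = 0.642).

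The cows' individual deviations were carried by both strands. After the group means were removed, the strands' deviations correlated at r = 0.876 over 559256 values and at 0.771 without genotype-like pairs, as a description over pairs of the same libraries. The median SD among the cows of a group was 27.6 points on either strand, against 12.9 for the strand difference. The strand difference thus varied less among the cows of a group than the level of either strand did. A cow under 10% together with a cow over 80% was seen on both strands of 35544 pairs (74.1%), on 1 strand of 3000 and on neither of 9448. The mean absolute strand difference was 8.70 points at genotype-like and 9.12 points at other pairs.

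The next comparison set the other strand of the same CpG against the nearest deposited neighbour. At 5223 pairs with a deposited site on the same strand within 50 bp, the strands of a cow differed by 8.61 ± 0.573 points and the neighbours by 11.8 ± 0.303 (SD, n = 12). The strand difference was the smaller one in 12 of 12 cows, with a mean difference of -3.15 points (exact sign-flip permutation test, two-sided, p = 0.000488, the smallest 12 cows can give). Within 10 bp the values were 8.52 and 10.2 points, and the strand difference was smaller in 11 of 12 cows (exact, p = 0.000977). The neighbour's difference was 16.5 points at 51 to 200 bp and 19.7 points beyond 200 and up to 1000 bp, while the strand difference of those pairs stayed at 8.80 and 8.76. A neighbour within 50 bp on the opposite strand differed by 14.9 points. The other strand was therefore closer in value than any class of neighbour measured, by more than the spread between cows. All sites compared share the authors' selection and the cow's library.

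**Figure D4:**
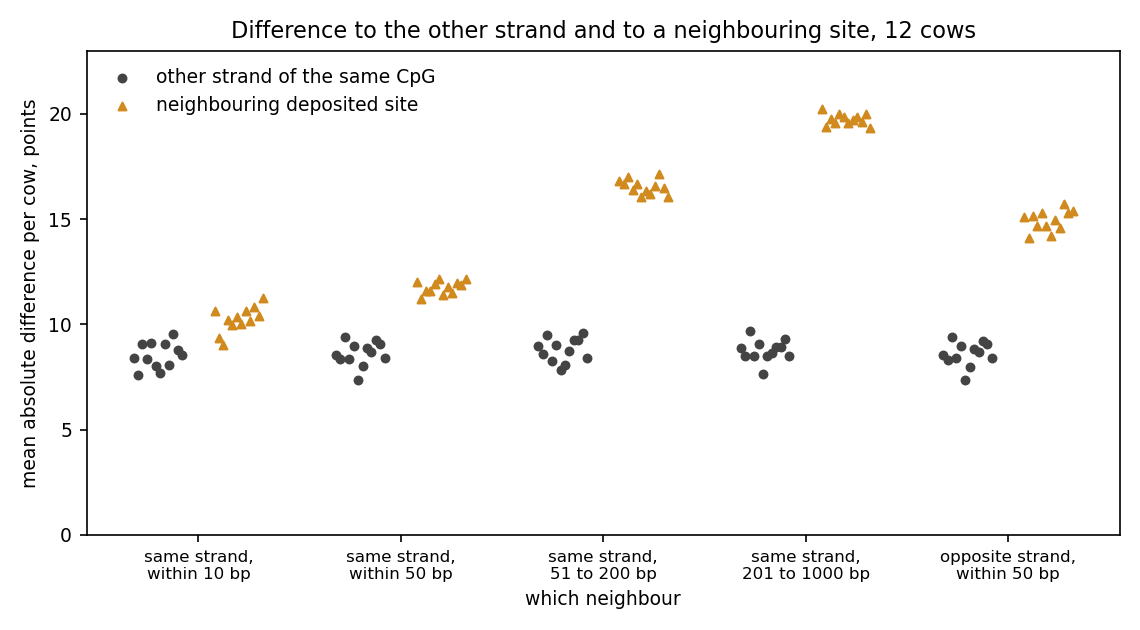
Mean absolute difference in percentage points per cow (y axis from 0) to the other strand of the same CpG (circles) and to the nearest deposited site of each kind (triangles), 12 cows per column. The circles stay near 8.5 to 8.8 points on average, and the triangles stand at 10.2 points within 10 bp and at 19.7 points beyond 200 bp.

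Pairs were then compared with the sites that had 1 strand deposited. Paired rows had fewer missing values, 1.47 ± 1.02% against 1.92 ± 1.15% of a cow's rows (SD, n = 12), and the share was lower in 12 of 12 cows (difference -0.446, exact sign-flip permutation test, two-sided, p = 0.000488). They also had fewer values from 20 to 80%, 40.1 ± 2.34% against 42.1 ± 2.08%, lower in 11 of 12 cows with subfertile cow 5 as the exception (difference -1.97, same exact test, p = 0.000977). Neighbours within 50 bp on the same strand differed by 11.7 points for paired and 11.7 for single-strand rows (same exact test, p = 0.728), with a mean difference between these of 0.0280 points.

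Pairs also lay farther from the authors' thresholds, which follows in part from the choice of members, since both strands had to pass. The authors' deposited difference had a median size of 37.0 points at paired and 33.3 points at single-strand rows, and it was under 30 points at 13.3% and 25.98% of them. The smallest deposited sizes were 25.01 and 25.003 points and the largest 93.8 and 82.0. The authors' deposited q-value had a median of 9.4e-05 at paired and 0.00111 at single-strand rows. Genotype-like values were found at 77.2% of paired and 64.1% of single-strand rows. The part of this selection in the missing and intermediate shares was not tested.

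In the authors' deposited table, 0 of 47992 pairs had differences of opposite sign on the strands. Each strand of a pair had passed the authors' thresholds in the same cows, which left little room for opposite signs, so this count describes selected rows. Both strands were higher in subfertile cows at 24690 pairs (51.4%) and both lower at 23302, and 52.7% of single-strand sites were higher. The 2 deposited differences of a pair lay a median of 4.76 points apart, 15.5 points at the 95th percentile and 39.3 points at most. The plus strand had the larger one at 49.8% of pairs. The widest gap was in intergenic sequence near GDF6, a growth factor of the BMP family, at chr14:68139986-68139987, with authors' deposited differences of -73.7 on the plus and -34.5 points on the minus strand. There the plus strand of fertile cows read 84.2, no value, 87.5, 87.5, 90.9 and 69.2% and the minus strand 68.8, 41.7, 33.3, 66.7, 62.5 and 72.7%. The minus strand was the lower one in 4 fertile cows, and fertile cow 2 had a value on that strand only. Subfertile cows 2 and 5 read 40 and 16.7% on the plus and 73.3 and 47.1% on the minus strand, and the other 4 subfertile cows read 0 on both. This pair was named after its values were seen.

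Averaging the strands did not bring a CpG site past the group test. With limma over all 168998 CpG sites, 0 (0%) passed an adjusted p of 0.05, and the smallest adjusted p was 0.0822 at a pair and 0.0937 at a single-strand site. An unadjusted p under 0.05 was reached by 33990 pairs (70.8%) and 51708 single-strand sites (42.7%), rows that had all been chosen for this contrast. Without fertile cow 2, 2 pairs passed (limma, adjusted p = 0.0435). Both, named after their values were seen, lie in an intron of RAP2A, which encodes a small GTPase of the Ras family, at chr12:74637202 and chr12:74637213. The mean of both strands at the first was 100, 95.8, 77.9, 95.8, no value and 97.4% in subfertile cows and 0, 51.4, 0, 0, 0 and 0% in fertile cows. At the second it was 100, 100, 79.2, 100, no value and 91.8% in subfertile cows and 3.33, no value, 0, 0, 0 and 0% in fertile cows. The left-out cow is the intermediate one at the first pair and has no value at the second.

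Groups overlapped on neither strand at 424 pairs (0.883% of all pairs), which is again a description of selected rows. All subfertile cows were higher at 289 and lower at 135, the groups separated on 1 strand only at 2420 further pairs, and at 0 pairs did the strands separate in opposite directions. On the mean of both strands the groups did not overlap at 2326 pairs (4.85%), against 3.42% of all CpG sites. Intergenic sequence held 275 of the 424 (64.9%, against 55.8% of all pairs), introns 128 (30.2% against 37.3%) and promoters 19 (4.48% against 5.33%). Chromosome 8 held 140 (33.0%, against 6.35% of all pairs), chromosome 2 held 48 (11.3% against 7.22%) and chromosome 22 held 31 (7.31% against 4.203%). Chromosome 17 held 30 (7.08% against 2.20%), and chromosome 29 held 19 (4.48% against 3.24%), of which 17 were lower in subfertile cows.

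The chromosome 8 pairs lay mostly between 14 and 26 Mb, a window drawn after the values were seen that holds the interferon tau genes. In it 134 of 970 pairs (13.8%) separated on both strands, 113 of them higher in subfertile cows, against 290 of 47022 pairs elsewhere (0.617%). The mean absolute strand difference in the window was 9.52 ± 0.898 points in subfertile cows (8.06 to 10.8) and 11.7 ± 0.671 in fertile cows (10.7 to 12.8), groups that barely overlap. Intermediate values made up 39.5 ± 5.16% and 62.5 ± 4.69% there, and their part in the strand difference was not tested. Outside the window the mean absolute strand differences were 8.72 ± 0.653 and 8.82 ± 0.375 points.

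Of the pairs separated on both strands, those with the widest group difference are given with both strands in each cow. At ATG7, an enzyme of autophagosome formation, the pair chr22:55457912-55457913 lies in an intron. In subfertile cows both strands were at 100% in cows 1 to 4, and cows 5 and 6 had 100% on the plus and 90% on the minus strand. Fertile cows read 38.5, 0, 0, 44.4, 31.2 and 40% on the plus and 45.5, 0, 0, 43.8, 30.8 and 25% on the minus strand. Fertile cows 2 and 3 were at 0 on both strands, and the other 4 fertile cows lay between 25 and 45.5% on each strand. The strands of fertile cow 6 differed by 15 points, and the group means were 98.3 ± 2.58% and 24.9 ± 20% (SD, n = 6 each).

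At IFNT3, an interferon tau by which the ruminant embryo signals its presence to the mother, chr8:22580721-22580722 is counted as promoter region. It lies 2824 bp from the gene's start, on the downstream side by the sign of the deposited distance. Subfertile cows read 88.9, 84.2, 92.9, 86.7, 100 and 91.7% on the plus and 92.9, 64.3, 88.9, 82.4, 92.3 and 84.6% on the minus strand. Fertile cows read 16.2, 23.1, 13.3, 18.2, 5.71 and 11.8% on the plus and 6.9, 10, 11.1, 22.7, 24.1 and 19.4% on the minus strand. Unlike at ATG7, no cow stood at 0 on either strand or near the middle on both, and the means were 87.5 ± 7.52% and 15.2 ± 3.22%. The interferon tau genes resemble each other so closely that reads may be assigned to the wrong copy.

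At PDE8B, a phosphodiesterase that degrades cyclic AMP, the intronic pair chr10:8434930-8434931 had 4 subfertile cows at 100% on both strands. Subfertile cow 3 read 69.2 and 61.5% and subfertile cow 6 read 42.9 and 47.1%. Fertile cows 2, 3 and 6 were at 0 on both strands, and fertile cows 1, 4 and 5 read 18.2, 30.8 and 30.8% on the plus and 38.9, 46.2 and 41.7% on the minus strand. The groups came within 1 point on the minus strand, where the highest fertile cow was at 46.2% and the lowest subfertile cow at 47.1%. At ARHGEF3, in another intron than the pair above, chr22:44136601-44136602 had means of 77.8 ± 22.9% in subfertile and 9.48 ± 14.9% in fertile cows, 4 of which read 0 on both strands.

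The intergenic pairs chr2:16196598-16196599 and chr17:37243463-37243464 have LOC112443598 and LOC512119 as their nearest genes. Their deposited distances to those genes' starts are -21272 and 241897 bp. Both pairs were at 0 on each strand with a value in fertile cows, except 38.5% on the plus strand of fertile cow 4 at the second. Their subfertile means were 73.4 ± 29.3% (n = 6) and 69.1 ± 19.1% (n = 5). Subfertile cows spread widely at the first, from 31.9 to 100% on the mean of both strands. No role is given for either locus here.

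Among pairs lower in subfertile cows, the intronic pair chr12:31058029-31058030 of MTUS2, a microtubule-associated protein, had the widest difference. Subfertile cows 1, 2 and 4 were at 0 on both strands, and cows 3, 5 and 6 read 33.3, 42.9 and 35% on the plus and 37.5, 18.8 and 50% on the minus strand. Fertile cows read 100, 100, 85.7, 93.3, 100 and 69.6% on the plus strand and 100% on the minus strand in the 5 cows with a value. The means were 18.1 ± 20.2% (n = 6) and 97.9 ± 3.17% (n = 5), without fertile cow 6, whose plus strand was the lowest of its group.

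At IGHMBP2, a helicase, the intronic pair chr29:46276321-46276322 read 100% on both strands in every fertile cow but cow 2, which had 57.1% on the plus and 85.7% on the minus strand. Subfertile cows read 50, 0, 54.5, no value, 0 and 36.4% on the plus and 18.8, 0, 46.7, 0, 0 and 38.9% on the minus strand. At OTUB1, a deubiquitinase, the intronic pair chr29:42319469-42319470 read 44.4, 0, 46.2, 33.3, 53.3 and 50% on the plus and 33.3, 0, 21.4, 27.3, 33.3 and 28.6% on the minus strand of subfertile cows. The plus strand was the higher one in the 5 subfertile cows above 0 there, while all fertile values lay between 83.3 and 100%. The strand difference at OTUB1 averaged 7.34 points and did not pass (limma, adjusted p = 0.881).

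At OIT3 all 6 subfertile cows were at 0 on both strands of the intronic pair chr28:28918195-28918196. Fertile cows read 47.6, 88.9, 33.3, 46.7, 100 and 57.9% on the plus and 57.9, 100, 47.4, 54.5, 100 and 62.5% on the minus strand. The minus strand was the higher one in 5 fertile cows and equal in fertile cow 5. The intergenic pair chr22:55790990-55790991 has VGLL4, a cofactor that restrains TEAD factors of the Hippo pathway, as its nearest gene. This pair lies at a deposited distance of -55653 bp and had means of 5.8 ± 13% (n = 5) and 77.4 ± 22.3% (n = 6). The first mean leaves out subfertile cow 3, which had no minus value and read 27.3% on the plus strand. An intergenic pair without a gene symbol at chr4:118151036-118151037 had means of 24.8 ± 22.3% (n = 6) and 91.7 ± 11.8% (n = 5). The second mean leaves out fertile cow 6, which had no minus value. Its plus strand read 50%, against 47.1% in the highest subfertile cow on that strand. In all 12 named pairs the group test did not pass (limma, adjusted p = 0.0937 in each).

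**Figure D5:**
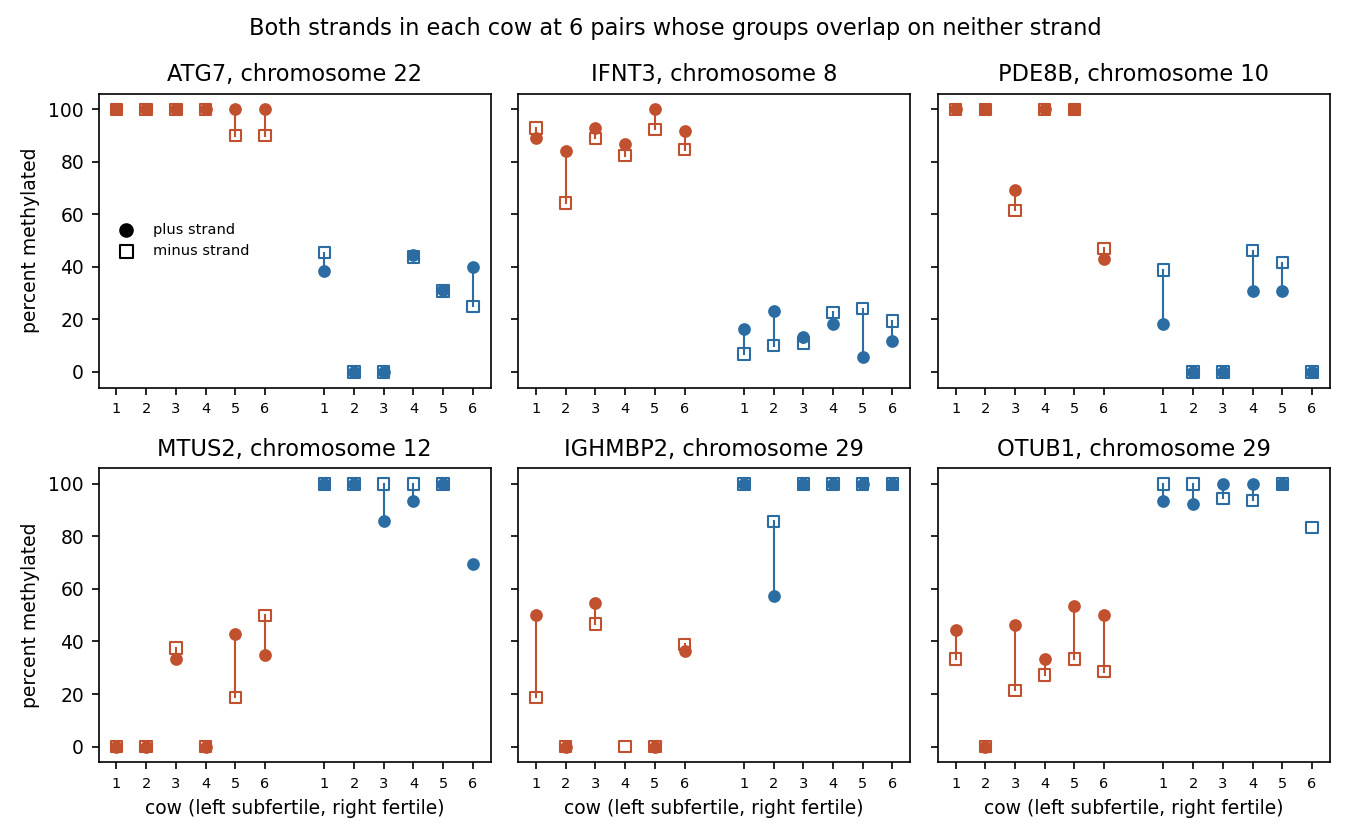
Percent methylated on the plus strand (filled circles) and minus strand (open squares) in each cow, joined by a line, at 6 pairs; subfertile cows 1 to 6 stand on the left and fertile cows 1 to 6 on the right of each panel. At IFNT3 no value lies at 0, while ATG7, PDE8B, MTUS2, IGHMBP2 and OTUB1 have cows at 0 or 100% on both strands and others in between.

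By class of feature, pairs and single-strand sites were spread in like proportions, while the share that was paired varied between chromosomes. Intergenic sequence held 26771 pairs (55.8%, against 58.6% of single-strand sites), introns 17901 (37.3% against 34.0%), promoters 2559 (5.33% against 5.70%), exons 527 and 3' UTRs 184. The share of CpG sites deposited on both strands was 28.5% on the autosomes together, 33.5% on chromosome 8, 17.0% on chromosome 15 and 22.5% on chromosome X, where 507 pairs lay. The mean absolute strand difference was 9.57 points on chromosome 8 and 8.11 to 9.11 on the other autosomes. By feature it was 8.96 points in intergenic sequence, 8.599 in introns, 8.603 in promoters and 8.53 in exons.

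Pairs were mostly scattered. Chained within 1000 bp, deposited rows formed 36397 clusters with a pair, of which 29678 held 1 pair and 555 held 5 or more, and 18.9% of single-strand sites lay in a cluster with a pair. The densest cluster held 25 pairs over chr8:110905550-110913697 in an intron of DCDC2C, a doublecortin-domain gene. The averages over a cluster or gene given here and below are means of both strands over the pairs with a value on both strands in that cow, so a cow with missing values averages fewer pairs than the count stated. Subfertile cows averaged 86.9 to 90.8% over its pairs, and fertile cows 47, 46.4, 43.8, 43.7, 3.59 and 86.9%. Fertile cow 6 stood with the subfertile cows and fertile cow 5 near 0, on both strands alike, as the plus and minus means of fertile cow 5 were 3.64 and 3.39%.

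The other 4 of the 5 densest clusters also had cows at a few levels that the strands shared. At 19 pairs in an intron of DPP6, an auxiliary subunit of potassium channels, at chr4:116766161-116773548, subfertile cow 1 averaged 31% (28.4% on the plus and 28.3% on the minus strand over all its values) and the other subfertile cows 89.9 to 92.8%. Fertile cows averaged 0.219, 91.9, 44.8, 47.6, 0 and 68.2% there. At 17 pairs in an intron of SNTG2, a syntrophin, at chr8:112266526-112275117, subfertile cows averaged 93.4, 92.3, 50.6, 93.2, 50.5 and 50.7% and fertile cows 46.9, 0, 92.1, 3.56, 0 and 43.9%. Every level near 0, 50 or 92% was held by cows of the fertile group, and the subfertile group lacked the lowest.

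At 20 pairs in an intron of FHIP1A, chr17:6395154-6402258, subfertile cows averaged 4.48 to 5.89% except cow 4 at 38.5%, and fertile cows 82.3, 46.5, 84.6, 47.2, 84.6 and 0%. Over all its values there, fertile cow 6 averaged 4.58% on the plus and 0% on the minus strand. At its pairs with both strands valued, both strands of this cow were at 0. At 18 intergenic pairs at chr20:70614181-70619807 fertile cows averaged 5.11 to 11.7% and subfertile cows 5.4, 11, 52.1, 85.2, 46.8 and 83.9%. Over the 5 clusters a cow's mean of plus minus minus lay between -11.8 points, in fertile cow 4 at FHIP1A, and 10.9 points, in subfertile cow 5 on chromosome 20. None of the pairs in these clusters passed the group test (limma, smallest adjusted p = 0.0937).

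Gene lists were read for where pairs lie, counting pairs in a gene or its promoter and not intergenic ones, and 0 pairs of any list passed a strand or a group test with limma. Of 19 genes of the DNA methylation machinery, 5 held a pair, 10 pairs in all. In subfertile cows 9 were lower and 1 higher, where 51.4% of all pairs were higher. DNMT3A gave 4 of the lower pairs and TET3 gave 3, and pairs of a gene are not independent. The 10 pairs had a mean absolute strand difference of 7.86 points. DNMT1 and UHRF1 held none. At 4 pairs of DNMT3A, the de novo methyltransferase, at chr11:74042828-74062949, subfertile cows averaged 39, 42.3, 97.3, 47.7, 0 and 49% and fertile cows 96.2, 54, 97.9, 50, 94.1 and 92.9%. Over all its values, subfertile cow 1 averaged 38.1% on the plus and 31.9% on the minus strand there. At its pairs with both strands valued, the plus strand was higher by 14.1 points on average. At 3 intronic pairs of TET3, which oxidises 5-methylcytosine, subfertile cows averaged 0, 32.2, 93.2, 0, 1.11 and 93% and fertile cows 93.6, 91.7, 97.7, 94.4, 46.9 and 0%. At the intronic pair of MBD4, a glycosylase that removes thymine opposite guanine, 5 fertile cows were at 0 on both strands and fertile cow 6 at 39.4%. The groups overlapped at each of the 3.

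Of 22 imprinted genes, 4 held 38 pairs, 29 lower and 9 higher in subfertile cows, where 51.4% of all pairs were higher. KCNQ1 gave 16 of the lower and 5 of the higher pairs, and GRB10 gave 12 of the lower. Pairs of a gene are not independent. The 38 pairs had a mean absolute strand difference of 6.39 points. KCNQ1, a potassium channel gene of an imprinted domain, held 21 intronic pairs at chr29:48812625-49122803. Subfertile cows averaged 85.8, 22.9, 96.1, 87.1, 24.6 and 83.5% over them and fertile cows 72 to 89.5%, so 2 subfertile cows stood apart on both strands. Over all its values, subfertile cow 3 averaged 91.8% on the plus and 85.7% on the minus strand. At its pairs with both strands valued, the plus strand was higher by 1.66 points on average. GRB10, an adaptor that dampens insulin receptor signalling, held 12 intronic pairs, all lower, with subfertile cows from 0 to 92.4% and fertile cows from 31.4 to 91.8%. PLAGL1, a zinc finger factor, averaged 70.6 to 90.9% in subfertile and 25 to 90.9% in fertile cows over 4 pairs.

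Of 26 lymphocyte genes, 8 held 48 pairs, 41 higher in subfertile cows, where 51.4% of all pairs were higher. BANK1 gave 35 of the 41, and the other 7 genes had 6 pairs higher and 5 lower. Of 20 myeloid genes, 2 held 19 pairs, all higher, and LTF gave 15 of them. Pairs of a gene lie close together in the same cows and are not independent. Since no expression or cell count was measured, these lists say where pairs lie and not which cells were present. BANK1, a B cell scaffold protein, held 37 pairs at chr6:22708417-22959677, where subfertile cows averaged 89.3, 88.2, 50.8, 86.5, 89.9 and 86.7% and fertile cows 48.4, 15.5, 49.3, 19.7, 51.5 and 49.3%. Subfertile cow 3 lay with the fertile cows there. LTF, the gene of the neutrophil protein lactoferrin, held 15 pairs at chr22:52955026-52974291, with 91.4 to 94.7% in subfertile and 46.2, 2.16, 41, 91.9, 93.4 and 44.7% in fertile cows. MSR1, a macrophage scavenger receptor, held 4 pairs with 84.8 to 96.5% in subfertile and 31.1 to 90.9% in fertile cows. PAX5, a B cell transcription factor, held 3 pairs, where subfertile cow 4 averaged 57.6% and the other subfertile cows 90.8 to 96.2%, against 0 to 93.8% in fertile cows. CD5, a T cell receptor regulator, held 2 pairs with a lower mean in subfertile cows, which averaged 100, 0, 41.3, 44, 39.3 and 46.6%. Fertile cow 6 was at 32.8% and the other fertile cows at 88.9 to 97.7%, so on this average subfertile cow 1 lay above every fertile cow.

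Of 32 genes of reproduction, 6 held 35 pairs, 21 higher and 14 lower in subfertile cows, where 51.4% of all pairs were higher. The 35 pairs had a mean absolute strand difference of 10.2 points. FSHR, the receptor of follicle-stimulating hormone, held 22 intronic pairs in both directions, 12 higher and 10 lower, and averaged 46.1 ± 3.77% in subfertile and 41.9 ± 5.01% in fertile cows on the plus strand and 47.7 ± 6.03% and 43.3 ± 3.32% on the minus strand. These averages run over pairs of opposite deposited direction, and averages per strand here and at ESR2 take in all values of that strand. ESR2, an oestrogen receptor, held 5 intronic pairs, where subfertile cows averaged 21.5 to 74.6% on the plus and 20 to 77.3% on the minus strand. Fertile cows averaged 19 to 51.7% on the plus and 0 to 50.6% on the minus strand. Over all its values, fertile cow 5 averaged 20% on the plus and 0% on the minus strand. At its pairs with both strands valued, both strands of this cow were at 0. IFNT3 held 3 pairs classed as promoter region, a class that takes in sites downstream of a start. All 3 separated the groups on both strands. So did 0.883% of all pairs and 13.8% of those in their window of chromosome 8. The 3 pairs averaged 81.2 to 94% in subfertile and 14.2 to 21.8% in fertile cows. Their strand differences averaged 6.74 ± 7.67 points in subfertile and -0.226 ± 7.08 in fertile cows, and the groups overlapped.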

How the data were processed

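Per the labels, blood DNA of 12 cows was converted enzymatically and sequenced. Tools listed in the submitters' processing notes are Bismark, DRAGEN, fastp 0.23.1 and ChIPseeker 1.32.1, with coordinates on ARS-UCD1.2. Per the file headers the deposited table gives a percent methylated for each cow and cytosine, the authors' difference in points (treated as a score), and the authors' p-value and q-value. It holds no read counts, so depth and precision are unknown and sites could not be filtered on reads. Columns were matched to cows by number, and 0 columns of cow values were left unmatched.

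Strands were subtracted within each cow and tested with limma 3.58.1 in R 4.3.3 with Benjamini-Hochberg adjustment over all pairs. The group test used log2 of (percent + 5)/(100 - percent + 5) over all CpG sites. Values per cow were compared by exact permutation tests. Only the limma tests of the strand difference, over the cows and between the groups, were tried on simulated data. Replicates are cows, numbered in accession order. Gene symbols are the table's; intron and exon sites take the gene that holds them, with RefSeq's ARS-UCD2.0 table for names only, and other sites the nearest gene.

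Members and lists were chosen with earlier results of these data known. Named by rule were up to 10 pairs with 1 direction in 12 cows, the 6 highest and 6 lowest group differences among pairs whose groups overlap on neither strand, up to 3 members per list with the most pairs, and the 5 densest clusters. The rule's place for deposited differences of opposite sign found none. Alternatives left out each cow, genotype-like pairs, chromosome X and scaffolds, clustered pairs and incomplete pairs, and changed thresholds, scales and neighbours.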

Additional observations from a re-analysis of the deposited data

Results flagged for a closer look

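In groups of 4 to 6 cows, the highest or lowest cow was compared with the others by Dixon's criterion at 77 group values, and 12 stood apart. Chance gives about 1 in 20 for normally distributed values. Several of these levels are tied at 0 or 100% in the other cows, so the 12 cannot be set against that rate. Subfertile cow 3 lacked 4.46% of paired values, against 0.886 to 1.54% in the other subfertile cows. At single pairs, levels are means of both strands, and cows lacking a value on 1 strand are left out. Near VGLL4, subfertile cow 2 stood at 29.0% where the others with both values were at 0. Subfertile cow 3, left out there, read 27.3% on the plus strand. Fertile cow 2 stood at 71.4% in IGHMBP2 where the others were at 100%. Fertile cow 4 stood at 70.8% at the intergenic pair chr4:118151036-118151037 where the others with both values were at 95.8 to 100%. Fertile cow 6, left out there, read 50% on the plus strand, lower than the 76.9% of fertile cow 4. In OTUB1, subfertile cow 2 was at 0 against 30.3 to 43.3%. Fertile cow 5 was at 100% there, against 96.2 to 97.2% in the others with both values. Fertile cow 6, left out there, read 83.3% on the minus strand.

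Over the pairs of a gene or cluster with both strands valued in the cow, fertile cow 6 stood at 39.4% in MBD4 against 0, and at 32.8% in CD5 against 88.9 to 97.7%. Subfertile cow 3 stood at 50.8% in BANK1 against 86.5 to 89.9%, and subfertile cow 4 at 57.6% in PAX5 against 90.8 to 96.2%. Subfertile cow 4 stood at 38.5% in the FHIP1A cluster against 4.48 to 5.89%, and subfertile cow 1 at 31.0% in the DPP6 cluster against 89.9 to 92.8%.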

How the results depend on the processing

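Of 175 alternatives, 170 kept the side of the threshold, the count, or a value within the spread between cows. Direction was compared only for results that passed, so changes of sign at differences that did not pass are among the 170. The group difference of the hemimethylated share ran from -0.0333 to 0.0640 percentage points with 1 cow left out. The share of hemimethylated values was 5.58% with strands at least 30 points apart, 0.00234% at 80 points and 0.0279% with 1 strand at most 20% and the other at least 80%, which follows from the definition. The group difference of the mean absolute strand difference was -0.500 points without genotype-like pairs (exact permutation test, p = 0.0281), and its p over the other pair choices reached 0.755. Leaving out 1 cow at a time, that difference ran from -0.305 to 0.0660 points, the mean over cows from 8.74 to 8.90 points, and the count of CpG sites passing limma between groups from 0 to 2, the 2 without fertile replicate 2. The counts of pairs with a strand difference stayed at 0 with limma under all alternatives, and unadjusted p under 0.05 was met by 596 to 2817 pairs over the cows. No paired analysis was possible because the labels give the groups no shared replicate numbers. The unknown depth limits any statement about small strand differences in a single cow.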
